A study of Homo sapiens with 12 samples.

Results

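Drug-metabolizing cytochrome P450 enzymes (CYPs) were examined with the nuclear receptors that induce them in liver and with their electron donor. The 9 genes were the receptors NR1I2 (PXR) and NR1I3 (CAR), the enzymes CYP3A4, CYP3A5, CYP3A7, CYP2B6, CYP2C8 and CYP2E1, and the reductase POR. They were chosen as the gene probes that carry 1 of these symbols as their name on the array, 13 of the 41000 gene probes, or 9 of 29245 gene names. RNA came from HuH-7, a single cell line from a human hepatocellular carcinoma, which carries the p53 change Y220C in all groups. Cells were exposed for 24 h to DMSO as the control or to the small molecule SLMP53-2 at 28 µM or 42 µM, which are 2 and 3 times its IC50. Each of the 3 groups had 4 one-colour arrays, 12 in all on 5 slides, and the labels call the 4 cultures biological replicates. The titles name the higher dose 42 µM, the name used here, while the treatment label of those arrays says 48 µM. The question was whether treatment with the compound was accompanied by a change in this drug-handling system.

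PXR and CAR are sensors of foreign compounds and bile constituents. Once activated they bind DNA as heterodimers with a retinoid X receptor and raise transcription of CYP3A and CYP2B genes, of conjugating enzymes and of export pumps. CYPs oxidize their substrates at a haem iron, and POR passes them electrons from NADPH, in some reactions with cytochrome b5 as a second donor. In adult liver CYP3A4 handles a large share of drugs, CYP3A5 and CYP3A7 are its close relatives, and CYP3A7 is the form of fetal liver. Liver cancer lines usually hold little of these enzymes.

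The promoters of the CYP3A genes carry a known PXR element, an everted repeat of 2 hexamers with 6 bases between them (TGAACT, then NNNNNN, then AGGTCA). It was searched on both strands in RefSeq promoter windows of GRCh38.p14, from 250 bases before to 50 bases after each gene's start. Windows existed for 8 of the 9 members. The exact element was in the windows of CYP3A4 and CYP3A5 and in 3 of all 35116 windows (0.00854%), and with up to 1 mismatch it was also in CYP3A7 and in 46 windows (0.131%). Single hexamers were counted on both strands, also where they are part of the element. AGGTCA was in windows of 5 members and in 13.8% of all windows. AGTTCA, which is TGAACT read on the other strand, was in windows of 3 members and in 10.4% of all. Outside the CYP3A genes, AGGTCA was in the windows of CYP2E1 and CYP2B6 and AGTTCA in a window of NR1I2. The stretches below show the 3 elements in the direction of transcription, with the hexamers in capitals and 12 bases on either side. They lay on the minus strand at chr7:99784324-99784365 for CYP3A4, chr7:99680080-99680121 for CYP3A5 and chr7:99735335-99735376 for CYP3A7, and the first hexamer began 169, 113 and 168 bases before the start.
CYP3A4: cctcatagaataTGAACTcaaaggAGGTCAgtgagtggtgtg
CYP3A5: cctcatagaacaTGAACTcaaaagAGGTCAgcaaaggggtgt
CYP3A7: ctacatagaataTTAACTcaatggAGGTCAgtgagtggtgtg
A match of letters is a description of the window and says nothing on whether the receptors bound there.

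Each probe is a 60-base oligonucleotide, and its signal reports only the stretch of transcript it pairs with. The probes of the genes near background and of CAR and POR are shown because their detection is what the values below rest on. In the coordinates of hg19 they lie at chr7:99355787-99355846 for CYP3A4, chr10:96805614-96805673 for CYP2C8 and chr1:161199616-161199675 for NR1I3, all on the minus strand. The POR probe lies at chr7:75615490-75615549 on the plus strand, and the CYP2E1 probes at chr10:135352342-135352401 (A_23_P98002) and chr10:135346267-135346326 (A_24_P394940) on the plus strand. No capitals are used, since no part of a probe is marked.
CYP3A4: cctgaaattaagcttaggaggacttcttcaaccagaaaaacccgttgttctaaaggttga
CYP2C8: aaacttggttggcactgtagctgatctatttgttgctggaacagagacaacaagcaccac
CYP2E1, A_23_P98002: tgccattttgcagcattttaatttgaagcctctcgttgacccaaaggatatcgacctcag
CYP2E1, A_24_P394940: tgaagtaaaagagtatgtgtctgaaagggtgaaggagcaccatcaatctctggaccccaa
NR1I3: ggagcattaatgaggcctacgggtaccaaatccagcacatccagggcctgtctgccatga
POR: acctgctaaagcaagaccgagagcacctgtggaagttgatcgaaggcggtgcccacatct
The other 7 probes lie at chr7:99245899-99245958, chr7:99264336-99264395 and chr7:99269394-99269453 for CYP3A5 (A_23_P8801, A_24_P915256 and A_24_P916916), chr7:99303037-99303096 for CYP3A7, chr19:41524193-41524252 and chr19:41523525-41523584 for CYP2B6 (A_24_P339514 and A_23_P208373) and chr3:119537112-119537171 for NR1I2. No 2 member probes shared a run of more than 7 bases. Exon maps of hg19 were not used here, so the place of each probe within its gene is not given.

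The arrays showed 65% to 85% of gene spots well above background, the scanner software's detection call. The cells expressed hepatocyte genes, with 11 of 12 hepatocyte markers well above background on all 12 arrays and the tyrosine aminotransferase gene TAT on 6. Of 11 markers of other liver cell types, 6 were detected on all arrays, namely COL1A2, COL3A1, CD68, VWF, KDR and KRT19. On some arrays 4 more were detected, and the leukocyte gene PTPRC on none. Of all single gene probes, 60.7% were detected on all 12 arrays. The 28 µM array of replicate 4 stood apart from its group. Over the 885 probes called at 42 µM, signed by their direction there, its median shift from the DMSO mean was 0.14 on the log2 scale, against 0.71, 0.90 and 0.74 for the other 28 µM arrays and 0.75 to 1.15 at 42 µM. The members' changes at 28 µM are therefore given with and without it. Leaving an array out on this measure favours calls at 28 µM among those same probes. In a bulk measurement, fewer cells that hold a transcript and less transcript per cell cannot be told apart.

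Detection divided the members. Of the 13 probes, 8 were well above background on all 12 arrays, 4 on some arrays and 1 on none, while 60.7% of all gene probes were detected on 12 arrays and 9.30% on none. CYP3A5, CYP3A7, CYP2B6, CYP2E1, CAR and POR each had a probe detected on every array, whereas PXR, CYP3A4 and CYP2C8 did not. No member spot was saturated and none was marked as an outlier by the scanner software.

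**Figure D1:**
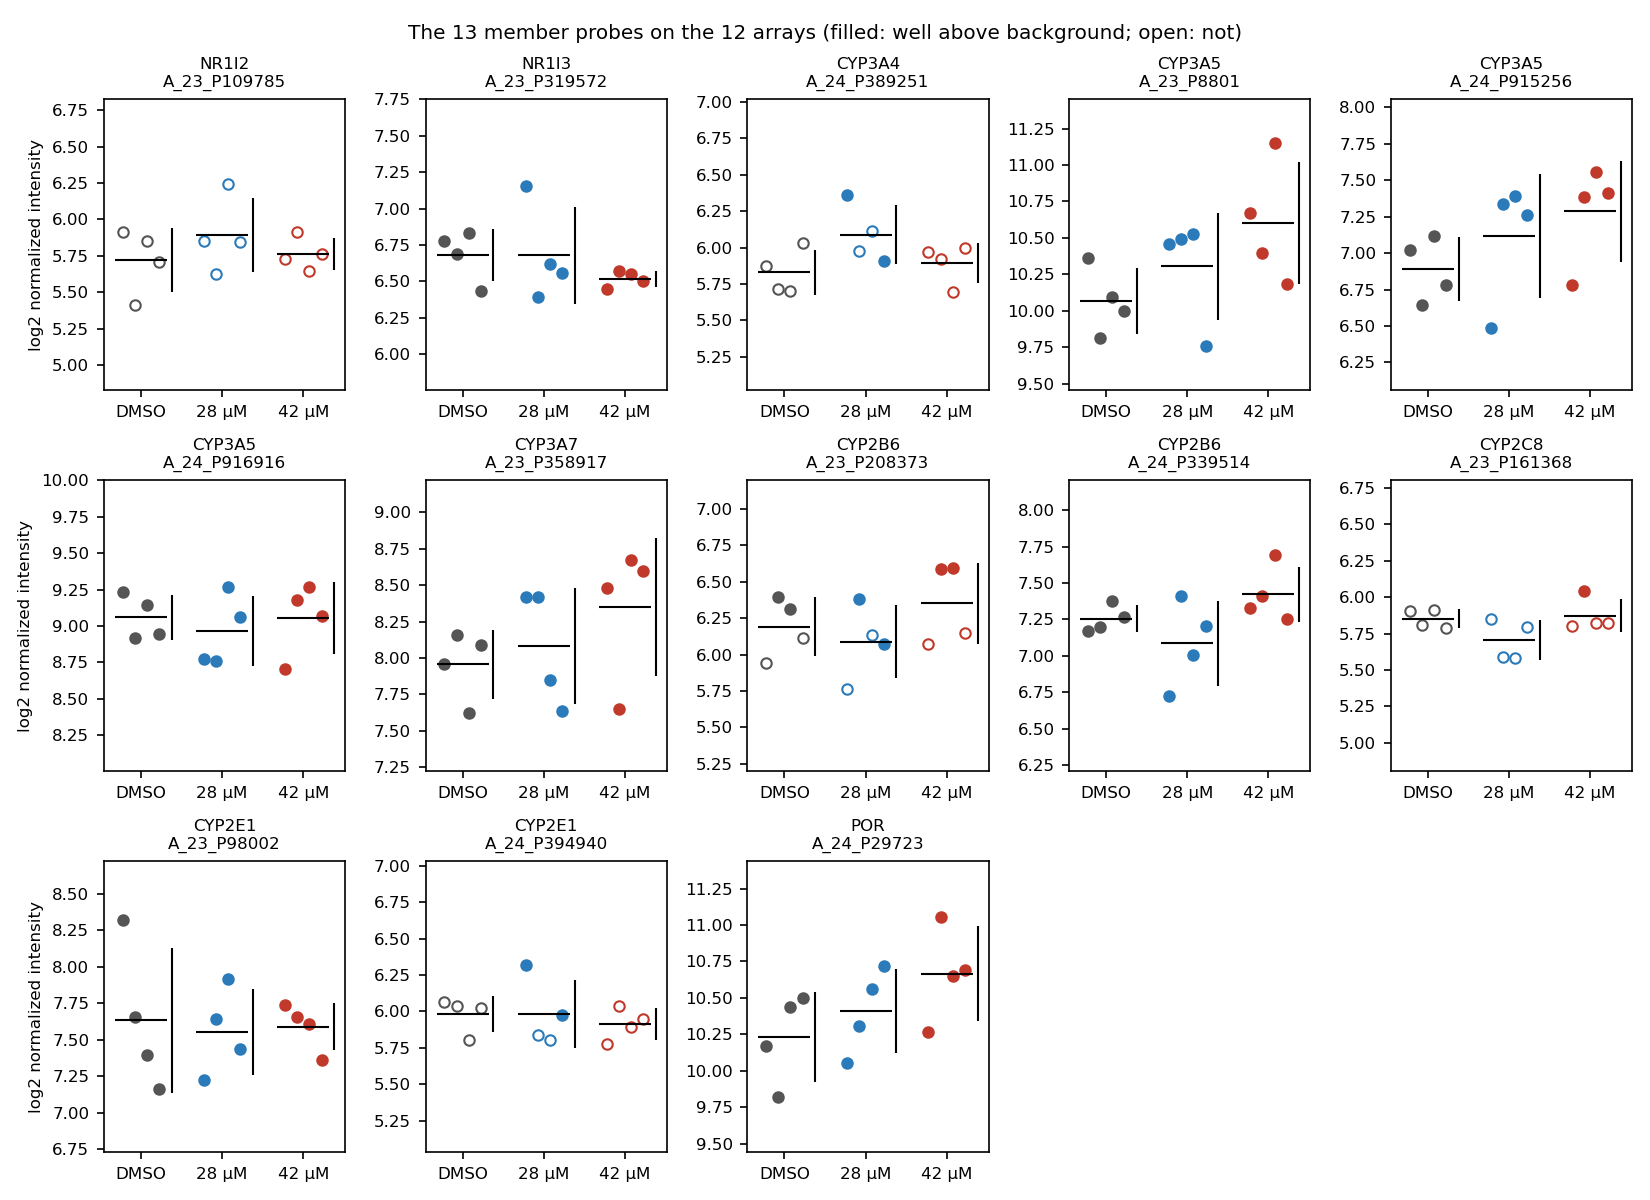
Log2 normalized intensity (y axis) of each of the 13 member probes on the 4 arrays of each group (x axis, replicates 1 to 4 from left to right). Horizontal lines are means and vertical lines are SD (n = 4). Filled circles were well above background and open circles were not. The PXR probe is open on all 12 arrays, and the CYP3A5 and POR probes are filled on all.

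None of the members was called with treatment under the limits used. The filter on dim probes let 7 of the 9 genes into the limma fit, each by its brightest probe. CYP3A4 passed it only through the 28 µM arrays, so the counts here cover the 6 genes detected on every array. A call needed a p below 0.05 after Benjamini-Hochberg adjustment together with a change of 0.6 or more on the log2 scale, either way. At 28 µM, 0 of 6 were called and 0 had an unadjusted p below 0.05, beside 0% of 24251 genes called and 11.9% under the unadjusted limit. That background rests on replicate 4, since without it 2.43% of genes were called and 16.8% were under the unadjusted limit, with the members still at 0 of 6 on both counts. At 42 µM, 0 of 6 were called and 2 had an unadjusted p below 0.05, CYP3A5 and POR, beside 2.99% of genes called, 1.57% higher and 1.42% lower, and 16.1% under the unadjusted limit. Between the doses, 0 of 6 were called and 1 had an unadjusted p below 0.05, CYP2B6, beside 0% of genes called and 2.57% under the unadjusted limit, or 0% and 1.89% without 28 µM replicate 4. The smallest limma adjusted p among the 6 was 0.6997 at 28 µM (0.3402 without replicate 4), 0.249 at 42 µM and 0.9995 between the doses. Their log2 fold changes at 42 µM ran from -0.17 to 0.53 with a median of 0.28, against a median of -0.02 over all genes tested. At 28 µM they ran from -0.17 to 0.24 with a median of 0.06, against -0.02 over all genes, and without replicate 4 from -0.21 to 0.42 with a median of 0.06, against -0.04. Both treated groups were set against the same 4 DMSO arrays.

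NR1I2, which encodes PXR, was not detected. On the log2 scale of normalized intensity its probe gave 5.91, 5.41, 5.85 and 5.71 on the DMSO arrays, 5.85, 5.63, 6.24 and 5.85 at 28 µM and 5.73, 5.91, 5.65 and 5.76 at 42 µM. The groups overlapped, and the probe was not well above background on any of the 12 arrays. Before normalization its mean spot signal was 92.6 to 171 intensity units, and it exceeded the 95th percentile of the 153 negative control spots of the same array on 8 of 12 arrays. With no detection in any group, no fold change is given for it, and a level under the detection call is not shown to be absent.

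NR1I3, which encodes CAR, was detected on all 12 arrays. Its log2 values were 6.78, 6.69, 6.83 and 6.43 on DMSO, 7.16, 6.39, 6.62 and 6.56 at 28 µM and 6.45, 6.57, 6.55 and 6.50 at 42 µM. The highest value was that of 28 µM replicate 1, and the 42 µM arrays were the closest together, between the lowest and the second lowest DMSO array. The log2 fold change was 0.00 ± 0.15 (SE) at 28 µM, or 0.04 without replicate 4, and -0.17 ± 0.15 at 42 µM (limma adjusted p = 0.707). The 95% confidence interval at 42 µM, -0.50 to 0.17, does not reach the limit of 0.6 either way.

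CYP3A4 lay near background. Its log2 values were 5.87, 5.72, 5.70 and 6.03 on DMSO, 6.36, 5.98, 6.11 and 5.90 at 28 µM and 5.97, 5.92, 5.69 and 6.00 at 42 µM. Only 28 µM replicates 1 and 4 were well above background, and replicate 4 was among them with the lowest value of its group. On those 2 arrays 85% and 83.4% of all gene spots were well above background, the highest shares of the 12 arrays. The mean spot signal exceeded the 95th percentile of the negative control spots on 10 of 12 arrays. At 28 µM a bound on the ratio of the group means to DMSO stood at 1.11-fold, or 1.16-fold without replicate 4. For this bound the undetected DMSO arrays were set no lower than the dimmest detected probe of the array. The bound takes no account of the spread between arrays. The limma 95% confidence interval of the fold for this probe, 0.986 to 1.45, included 1, so a rise is not shown. With the scanner's processed signal scaled to the 75th percentile the bound was 0.80, under 1, so it does not hold on that scale. At 42 µM neither group was detected, and no fold change is read.

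CYP3A5 had the largest fitted change at 42 µM of the 6 members detected on every array. Its brightest probe gave 10.36, 9.81, 10.09 and 10.00 on DMSO, 10.46, 10.49, 10.52 and 9.76 at 28 µM and 10.67, 10.40, 11.15 and 10.18 at 42 µM. At 42 µM, 3 of 4 arrays exceeded every DMSO array, and replicate 4 lay below DMSO replicate 1, so that the groups overlapped. The log2 fold change was 0.53 ± 0.22 (SE), 1.45-fold, with a 95% confidence interval of 0.06 to 1.01 (limma unadjusted p = 0.0298, adjusted p = 0.249). At 28 µM it was 0.24 ± 0.22 (adjusted p = 0.713), since 3 arrays lay above all DMSO arrays and replicate 4 below all of them. Without that array it was 0.42 (adjusted p = 0.34). Between the doses the log2 fold change was 0.29 ± 0.22, and 0.11 without 28 µM replicate 4.

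The probes of CYP3A5 differed. Probe A_24_P915256, designed to another transcript, gave 7.02, 6.64, 7.12 and 6.78 on DMSO, 6.49, 7.34, 7.39 and 7.26 at 28 µM and 6.78, 7.39, 7.56 and 7.41 at 42 µM. Here too 3 of 4 arrays at 42 µM exceeded all DMSO arrays, but the low array was replicate 1, and the log2 fold change was 0.39 ± 0.22 (adjusted p = 0.43). Probe A_24_P916916, designed to a further transcript, lay between 8.92 and 9.23 on DMSO, between 8.76 and 9.27 at 28 µM and between 8.70 and 9.27 at 42 µM. Its log2 fold change at 42 µM was 0.00 ± 0.15, with an interval of -0.33 to 0.33. Over the 12 arrays the brightest probe correlated with these 2 at Pearson r = 0.338 and 0.123, and they correlated with each other at 0.635. These values describe arrays that share groups and slides, and the 42 µM value of CYP3A5 rests on which probe is read.

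CYP3A7, the fetal form, was detected on all 12 arrays. It gave 7.96, 8.16, 7.62 and 8.09 on DMSO, 8.42, 8.42, 7.85 and 7.63 at 28 µM and 8.48, 7.65, 8.67 and 8.60 at 42 µM. At 42 µM, 3 arrays exceeded all DMSO arrays and replicate 2 lay near the bottom of the DMSO range. The log2 fold change was 0.39 ± 0.24 (SE), with an interval of -0.12 to 0.91 (limma adjusted p = 0.495), and at 28 µM it was 0.12 ± 0.24, or 0.27 without replicate 4. The array that was low for CYP3A7 was not the one that was low for either of the first 2 CYP3A5 probes. The brightest CYP3A5 probe and the CYP3A7 probe correlated at Pearson r = 0.54 over the 12 arrays, whereas the other CYP3A5 probes, A_24_P915256 and A_24_P916916, correlated with CYP3A7 at -0.0763 and -0.414. The CYP3A genes are close paralogs, and hybridization of their transcripts to each other's probes was not tested.

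CYP2B6, the classic CAR target, was detected on all arrays by its brightest probe. This gave 7.17, 7.20, 7.38 and 7.27 on DMSO, 6.72, 7.41, 7.004 and 7.21 at 28 µM and 7.33, 7.41, 7.69 and 7.25 at 42 µM. The 3 groups overlapped, and the 28 µM arrays were the most spread. The log2 fold change was -0.17 ± 0.15 (SE) at 28 µM, or -0.21 without replicate 4, and 0.17 ± 0.15 at 42 µM, where the interval of -0.15 to 0.49 stays under 0.6. Between the doses it was 0.34 ± 0.15 (limma unadjusted p = 0.0409, adjusted p = 0.9995), or 0.38 without 28 µM replicate 4, and all 4 arrays at 42 µM lay above the 28 µM mean. The second probe was detected on 6 of 12 arrays, 2 in each group, with log2 fold changes of -0.10 ± 0.17 and 0.16 ± 0.17.

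CYP2C8 was not tested, since its probe was well above background only on 42 µM replicate 2. Its log2 values were 5.90, 5.81, 5.91 and 5.79 on DMSO, 5.85, 5.59, 5.58 and 5.80 at 28 µM and 5.80, 6.04, 5.82 and 5.82 at 42 µM. The mean spot signal exceeded the 95th percentile of the negative control spots on 9 of 12 arrays. The detected array was the highest of the 12, and the other 3 at 42 µM lay within the DMSO range. The bound on 42 µM over DMSO was under 1, so no fold is given.

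CYP2E1, the ethanol-inducible form, was detected on all arrays by the probe nearer the 3′ end of the gene. It gave 8.32, 7.65, 7.40 and 7.16 on DMSO, 7.22, 7.64, 7.91 and 7.44 at 28 µM and 7.74, 7.66, 7.61 and 7.36 at 42 µM. All treated arrays lay inside the DMSO range, which was the widest of the 3. The log2 fold change was -0.08 ± 0.22 (SE) at 28 µM, or -0.04 without replicate 4, and -0.04 ± 0.22 at 42 µM (limma adjusted p = 0.963), with an interval at 42 µM of -0.52 to 0.43. The other probe was well above background only on 28 µM replicates 1 and 4 and ran from 5.77 to 6.32 over all arrays.

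POR, the electron donor of all microsomal CYPs, was detected on all arrays. It gave 10.17, 9.82, 10.44 and 10.50 on DMSO, 10.05, 10.31, 10.56 and 10.72 at 28 µM and 10.27, 11.06, 10.65 and 10.69 at 42 µM. At 42 µM, 3 arrays exceeded all DMSO arrays and replicate 1 lay within their range. The log2 fold change was 0.43 ± 0.20 (SE), 1.35-fold, with an interval of 0.01 to 0.86 (limma unadjusted p = 0.0474, adjusted p = 0.316), and at 28 µM it was 0.18 ± 0.20, or 0.07 without replicate 4. POR and the brightest CYP3A5 probe correlated at Pearson r = 0.144 over the 12 arrays, and the low array at 42 µM was a different one for each. The other CYP3A5 probes, A_24_P915256 and A_24_P916916, correlated with POR at 0.756 and 0.517, and the low 42 µM array of both was replicate 1, as for POR.

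**Figure D2:**
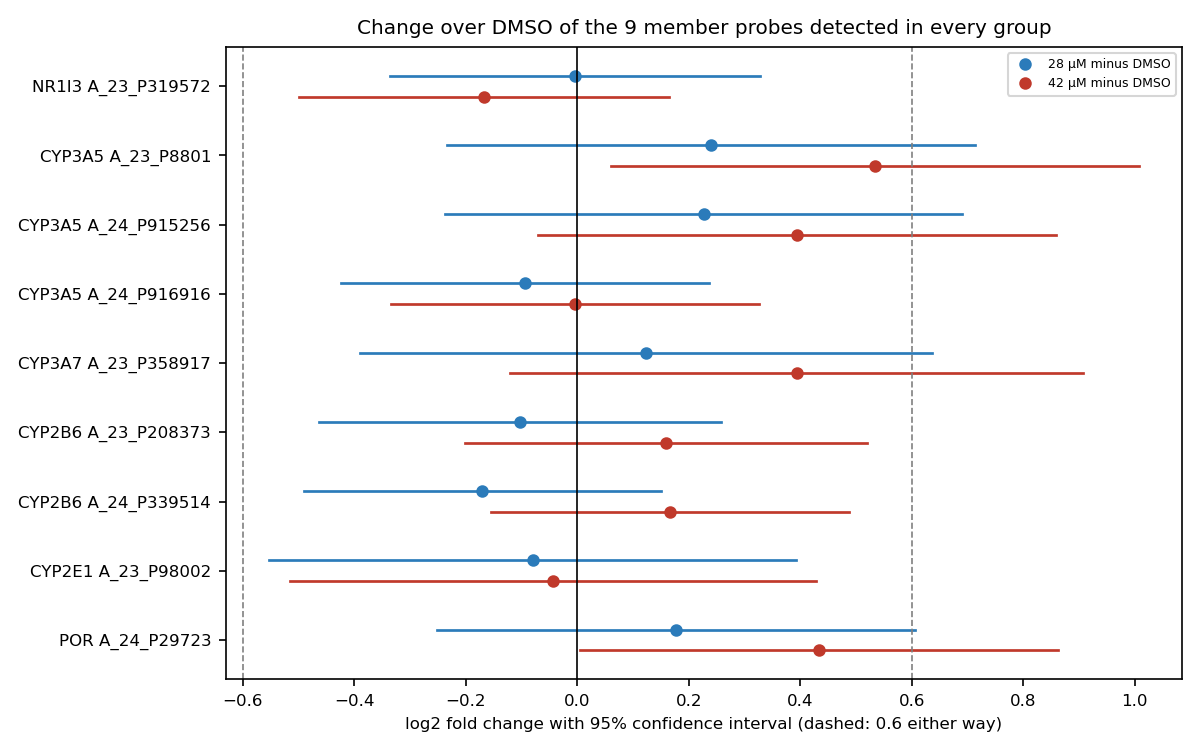
Log2 fold change over DMSO (x axis) with its 95% confidence interval for the 9 member probes detected in every group (y axis), at 28 µM and at 42 µM, from limma over 12 arrays. Dashed lines mark 0.6 either way. No point lies beyond 0.6, and at 42 µM the intervals of the brightest CYP3A5 probe and of POR do not include 0.

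The arrays lay on slides that held more than 1 group, which allowed each change to be read between arrays of the same slide. For 42 µM minus DMSO the brightest CYP3A5 probe differed by 0.67, 0.31 and 1.34 on slides 2, 4 and 5, all in 1 direction, and with slide as a block in limma its log2 fold change was 0.64 (adjusted p = 0.207). CYP3A7 differed by 0.39, 0.03 and 0.52. POR differed by -0.24, 0.62 and 0.83, so that slide 2 went against the other 2, and its blocked value was 0.46 (adjusted p = 0.271). CYP2B6 differed by 0.06, 0.03 and 0.49, CYP2E1 by 0.57, 0.26 and -0.05, and CAR by 0.02, -0.27 and -0.14. For 28 µM minus DMSO on slides 1, 2 and 4 the CYP3A5 values were 0.16, 0.45 and -0.33, the last of them from replicate 4. The POR values there were 0.39, -0.45 and 0.28. Scan time went with the slide, so slide and scan cannot be told apart.

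**Figure D3:**
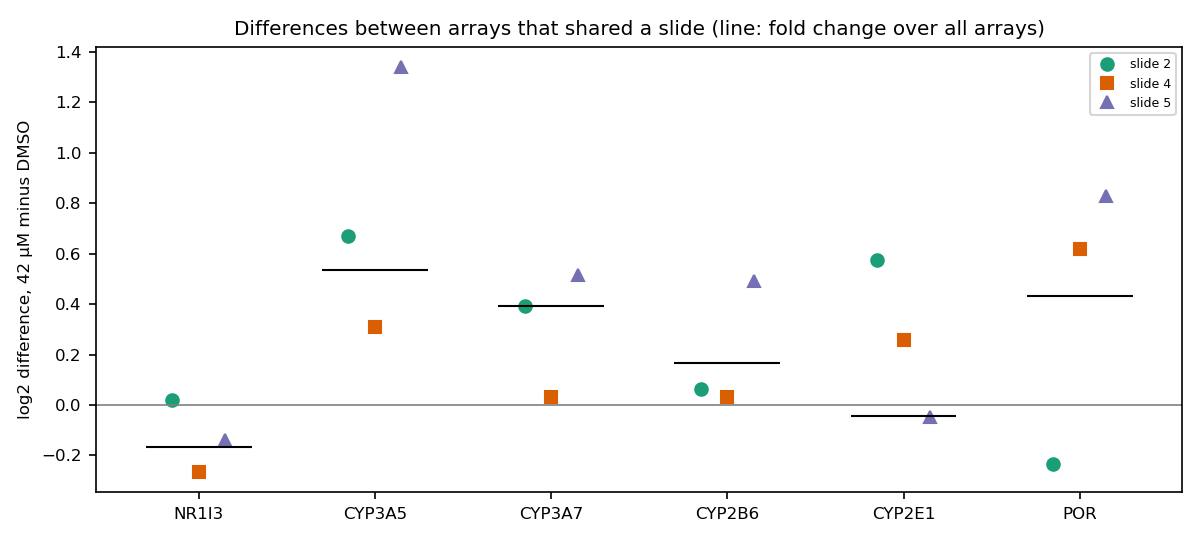
Log2 difference of a 42 µM array minus the DMSO array of the same slide (y axis) for the 6 members detected on every array (x axis), 1 symbol for each of slides 2, 4 and 5. Black lines are the limma log2 fold changes over all arrays. CYP3A5, CYP3A7 and CYP2B6 lie above 0 on all 3 slides, POR and CYP2E1 on 2 of 3 and CAR on slide 2 alone.

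By the fixed rule of likeness, the 3 genes whose brightest probe followed CYP3A5 most closely over the 12 arrays were PRELID3A (Pearson r = 0.932), PMS2P3 (0.916) and LINC00482 (0.915). Their log2 fold changes at 42 µM were 0.52, 0.33 and 0.86, and none was called. For POR they were DGCR6L (0.974), SCMH1 (0.971) and UCP2 (0.963), with log2 fold changes of 0.59, 0.44 and 0.52, also uncalled. These are the top values of 24251 genes over only 12 arrays, and all points share groups and slides.

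None of the other CYP2 and CYP3 enzymes was called. All 14 of the list had a probe, 13 were tested and 9 were detected on every array. At either dose 0 were called, beside 0% of all genes at 28 µM and 2.99% at 42 µM. At 42 µM the median log2 fold change was 0.01, against -0.02 over all genes, and 2 of 13 had a limma unadjusted p below 0.05, beside 16.1% of all genes. At 28 µM none was called with or without replicate 4, beside 0% of all genes with it and 2.43% without it. With all arrays, 3 of 13 had a limma unadjusted p below 0.05 at 28 µM, beside 11.9% of all genes. The largest log2 fold change at 28 µM was that of CYP3A43, -0.50 ± 0.21 (SE; limma adjusted p = 0.387). At 42 µM it had -0.21 ± 0.21, and it was singled out after its values were seen. The largest at 42 µM was CYP2R1, a vitamin D hydroxylase, with 10.73, 10.49, 10.47 and 10.24 on DMSO, 11.16, 11.05, 11.05 and 10.46 at 28 µM and 11.32, 11.11, 11.13 and 10.77 at 42 µM. All 4 arrays at 42 µM lay above all DMSO arrays, with a change of 0.60 ± 0.17 on the log2 scale (SE; adjusted p = 0.0817). CYP2C18 had a log2 fold change of -0.46 ± 0.19 (adjusted p = 0.239), and its 42 µM arrays ran from 6.75 to 7.02 against 7.14 to 7.51 on DMSO.

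Among 28 PXR and CAR targets outside the CYPs, 3 were called higher at 42 µM, none was called lower and 18 of those tested did not pass. Probes existed for 24 of them, 21 were tested, and UGT1A1, UGT1A3, UGT1A4 and UGT1A9 had none under those names. The share called higher, 3 of 21, stands beside the 1.57% of all genes, and the median log2 fold change was 0.27 against -0.02. Called or not, 14 of the 21 were higher and 7 lower, from -0.33 to 1.08. Without regard to direction, 9 of 21 had a limma unadjusted p below 0.05, beside 16.1% of all genes. SULT2A1, the sulfotransferase of steroids and bile acids, gave 8.41, 8.68, 8.37 and 8.55 on DMSO, 9.56, 9.90, 9.52 and 8.68 at 28 µM and 9.32, 9.70, 9.54 and 9.79 at 42 µM. Its 42 µM arrays lay above all DMSO arrays, with a change of 1.08 ± 0.21 on the log2 scale (SE; limma adjusted p = 0.0187). ALDH1A1, which oxidizes retinal, gave 12.21, 12.99, 12.89 and 12.93 on DMSO and 13.50, 13.78, 13.66 and 13.39 at 42 µM, a log2 fold change of 0.83 ± 0.17 (adjusted p = 0.0209). ABCC3, an efflux pump of conjugates, gave 7.51, 7.76, 7.69 and 7.87 on DMSO and 8.25, 8.48, 8.62 and 8.19 at 42 µM, a log2 fold change of 0.68 ± 0.15 (adjusted p = 0.0318). For these 3 genes every 42 µM array exceeded every DMSO array. The export pumps ABCB1 and ABCC2 had changes of 0.75 ± 0.21 (adjusted p = 0.0692) and 0.70 ± 0.18 (adjusted p = 0.0564) on the log2 scale and did not pass. They were singled out after their values were seen, and both lie on the higher side of the list. The 7 targets that were lower at 42 µM, down to -0.33, are not named.

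At 28 µM none of these targets was called, beside 0% of all genes. A limma unadjusted p below 0.05 was found for 7 of 21, beside 11.9% of all genes. Of the 21 tested, 17 were higher and 4 lower there, with log2 fold changes from -0.67 to 0.91. SULT2A1 had a log2 fold change of 0.91 ± 0.21 (limma adjusted p = 0.182), and its replicate 4, at 8.68, was the only 28 µM array inside the DMSO range. Without that array, 2.43% of all genes were called and 1.45% were called higher. In that fit 2 of 21 targets were called, SULT2A1 at 1.16 (limma adjusted p = 0.00214) and ABCC3 at 0.68 (adjusted p = 0.0257). ALDH1A1 stood at 0.61 (adjusted p = 0.112). The probes of SULT2A1, ABCC3 and ALDH1A1 were themselves among those on which 28 µM replicate 4 was set apart. Leaving that array out favours calls of these genes, so the fit cannot decide whether they changed at 28 µM. No target was called between the doses, beside 0% of all genes. There 0 of 21 had a limma unadjusted p below 0.05, beside 2.57% of all genes.

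Of 22 partners and regulators of PXR and CAR, 21 were tested and 1 was called at 42 µM, NR0B2, beside 2.99% of all genes. It encodes SHP, a receptor without a DNA-binding domain that represses other nuclear receptors. NR0B2 gave 10.28, 9.93, 9.86 and 10.29 on DMSO, 11.21, 11.35, 11.52 and 10.63 at 28 µM and 11.41, 11.60, 11.26 and 11.32 at 42 µM. All 8 treated arrays exceeded all DMSO arrays, and the log2 fold change was 1.31 ± 0.18 (SE; limma adjusted p = 0.0112) at 42 µM. At 28 µM it was 1.09 ± 0.18 (adjusted p = 0.115), and 1.27 without replicate 4 (adjusted p = 0.00126). The NR0B2 probe was itself among those on which replicate 4 was set apart. The list's median log2 fold change at 42 µM was -0.01. The heterodimer partner RXRA had -0.17 ± 0.13, the liver factor HNF4A -0.04 ± 0.12 and the coactivator PPARGC1A 0.84 ± 0.26 (adjusted p = 0.107), none of which passed. These 3 were picked after their values were seen.

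Of the 20 genes for cytochrome b5, electron donors and haem, all were detected on every array. In any comparison 0 were called by limma, with or without 28 µM replicate 4. The shares of all genes called were 0% at 28 µM, 2.43% there without replicate 4, 2.99% at 42 µM and 0% between the doses. At 42 µM, 7 of 20 had an unadjusted p below 0.05, beside 16.1% of all genes, and the median log2 fold change was -0.01. CYB5B, a cytochrome b5 of the outer mitochondrial membrane, had 0.40 ± 0.16 (SE; adjusted p = 0.234), and CPOX, an enzyme of haem synthesis, had -0.37 ± 0.16 (adjusted p = 0.26). All 4 arrays at 42 µM lay below all DMSO arrays for CPOX, 8.06 to 8.15 against 8.26 to 8.68. ALAS1, the entry step of haem synthesis and a member of the target list too, had 0.32 ± 0.13 (adjusted p = 0.251). A dimmer probe of UROS, another enzyme of haem synthesis, was called at -0.65 ± 0.14 (adjusted p = 0.03), while its brightest probe had 0.01 ± 0.15.

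**Figure D4:**
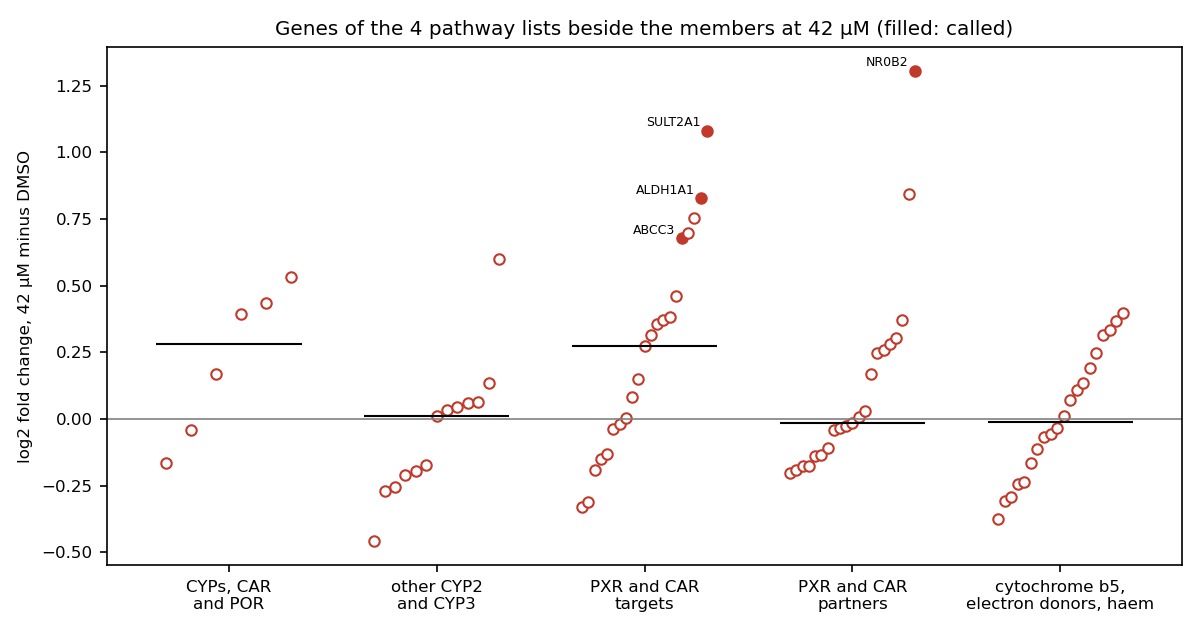
Log2 fold change of 42 µM over DMSO (y axis) for the brightest tested probe of each gene, by list (x axis), with the 6 members detected on every array at the left. Filled circles were called, open circles were not, and lines are medians. The 4 filled circles are SULT2A1, ALDH1A1, ABCC3 and NR0B2, and no member is filled.

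The 4 calls did not hold with the slide as a fixed block. The log2 fold changes were then 0.99 for SULT2A1 (adjusted p = 0.0664), 0.79 for ALDH1A1 (adjusted p = 0.0715), 0.67 for ABCC3 (adjusted p = 0.103) and 1.37 for NR0B2 (adjusted p = 0.056), and 1 probe of all 33467 was called in that fit. Within slides 2, 4 and 5 the 42 µM array exceeded its DMSO array in all 4 genes, by 0.77, 1.32 and 0.86 for SULT2A1, by 0.57, 0.89 and 0.68 for ALDH1A1, by 0.38, 0.79 and 0.86 for ABCC3 and by 1.12, 1.74 and 1.32 for NR0B2. Each call was also lost without 42 µM replicate 2 or without DMSO replicate 2, with log2 fold changes of 1.05 and 1.14 for SULT2A1 (adjusted p = 0.0747 and 0.0599), 0.76 and 0.91 for ALDH1A1 (0.0872 and 0.0593), 0.65 and 0.70 for ABCC3 (0.118 and 0.0867) and 1.24 and 1.26 for NR0B2 (0.0522 and 0.0505). No probe of all 33467 was called in either of these fits. Other single arrays ended a call too. SULT2A1 was also lost without DMSO replicate 1, 3 or 4 (log2 fold change 1.05, 1.04 and 1.10, adjusted p = 0.0599, 0.0527 and 0.0524). ALDH1A1 was also lost without 42 µM replicate 3 (0.80, adjusted p = 0.0532). ABCC3 was also lost without DMSO replicate 1, 3 or 4 (0.61, 0.67 and 0.73, adjusted p = 0.0942, 0.0736 and 0.0587) and without 42 µM replicate 1 or 3 (0.72 and 0.60, adjusted p = 0.0535 and 0.0885). With the processed signal scaled to the 75th percentile ALDH1A1 stood at 0.61 (adjusted p = 0.104) and ABCC3 at 0.85 (adjusted p = 0.0503), and with Edwards values scaled so ALDH1A1 stood at 0.61 (adjusted p = 0.0838).

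**Figure D5:**
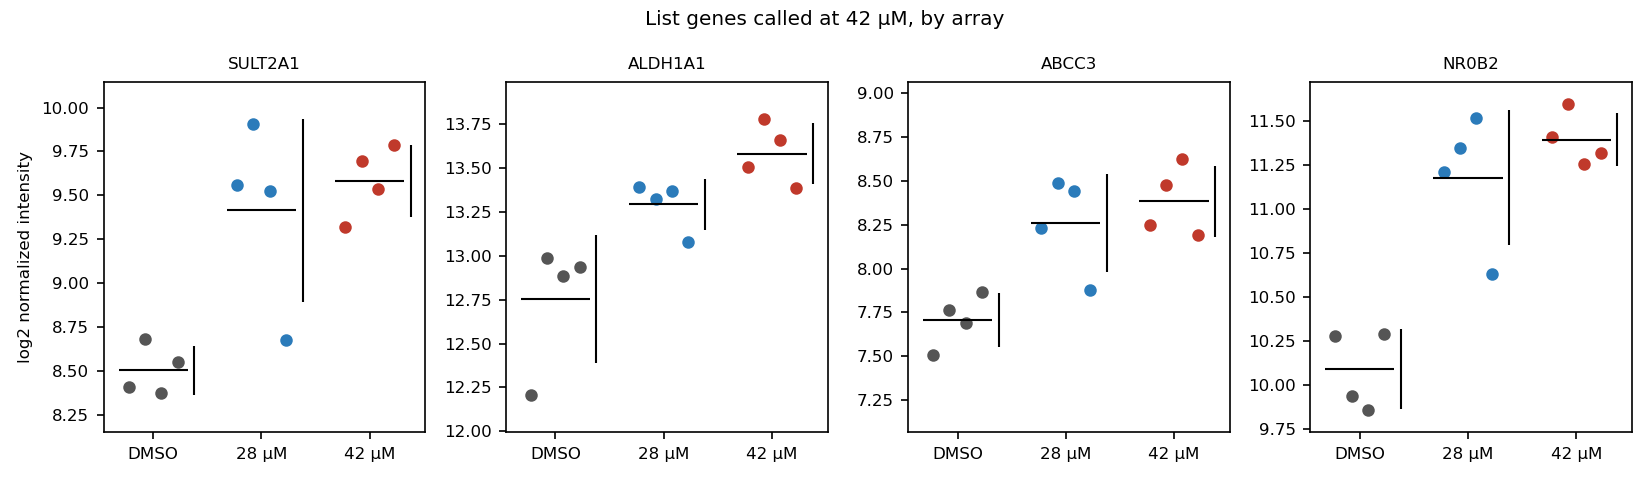
Log2 normalized intensity (y axis) of the 4 list genes called at 42 µM on the 4 arrays of each group (x axis, replicates 1 to 4 from left to right), with the mean as a horizontal line and the SD as a vertical line (n = 4). All 42 µM arrays lie above all DMSO arrays, and the 28 µM array of replicate 4 is the lowest of its group in each panel.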

How the data were processed

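The authors deposited Agilent Feature Extraction output (version 10.7.3.1 in the submitters' processing notes) with each spot's mean and local background intensity, its processed signal and flags. They also deposited log2 values after Edwards background correction and quantile normalization. Here the intensities were corrected and normalized the same way with limma 3.58.1 in R 4.3.3, without control spots and outlier flags, and spots of a probe were averaged. A probe was kept, as 33467 of 41000 were, if 2 or more of the 4 arrays of any condition had it well above background. All 12 arrays entered lmFit and eBayes, with two-sided tests and Benjamini-Hochberg adjustment over all kept probes. The brightest kept probe stood for a gene. RefSeq accessions (GRCh38.p14, names only) matched 68.5% of probes. The rest go by the array's own, partly old, names. Hepatocyte markers and markers of other liver cell types were used to check the cells.

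The members and lists were chosen with earlier results of these data known. Named are all members, up to 3 called genes of each list by size of change (or the 2 largest where none was called), and the 3 genes most correlated with the 2 members of largest change among those detected on all arrays. Genes singled out later are marked so. The number of arrays limits the precision. The deviations of same-numbered arrays correlated at -0.462 to 0.617, with either sign, and replicate numbers were not taken as pairs. No comparison with differently numbered arrays is given, so a shared replicate effect is not excluded. Alternatives were normexp, 2 scalings to the 75th percentile, the authors' log2 values, other filters, slide and replicate blocks, only the groups compared, other fold limits, other probes of a gene, within-slide differences and leaving out each array. Figures were drawn with matplotlib 3.10.9. qPCR and protein data were not analysed here.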

Additional observations from a re-analysis of the deposited data

Results flagged for a closer look

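In 63 sets of 4 arrays (13 member probes and 8 list genes in 3 groups), 6 had an array far from the other 3 by Dixon's test at the 95% level, which chance alone flags in about 1 of 20 sets. For the brightest CYP3A5 probe, 28 µM replicate 4 stood at 9.76 on the log2 scale, with the others between 10.46 and 10.52. The same array was low for CYP2R1, at 10.46 against 11.05 to 11.16. For the CYP3A5 probe A_24_P915256 the far array was 28 µM replicate 1, at 6.49 against 7.26 to 7.39. For CYP2C8, 42 µM replicate 2 stood at 6.04 against 5.80 to 5.82, and it was the only array on which that probe was detected. For the undetected DMSO arrays of the CYP2E1 probe A_24_P394940, replicate 3 stood at 5.80 against 6.03 to 6.07. For ALDH1A1, DMSO replicate 1 stood at 12.21 against 12.89 to 12.99.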

How the results depend on the processing

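The count of called members was 0 in all 3 comparisons under every alternative run. In many of these fits almost no probe of any gene was called, so a count of 0 there carries no weight. At 28 µM probes were called only with the replicate block (2) and without 28 µM replicate 4 (719). At 42 µM, 1 was called with slide as a block and 0 without DMSO replicate 2 or 42 µM replicate 2. Between the doses 0% of genes were called, with or without 28 µM replicate 4. For the 6 members detected on every array there were 408 values under alternatives other than within-slide differences, of which 22 had another sign than the value reported, 1 of them by over 1 replicate SD. That was CYP3A5 at 42 µM, which was -0.0040 by probe A_24_P916916. Of 54 within-slide differences 15 had another sign, 8 of them by over 1 SD. PXR, CYP3A4 and CYP2C8 were well above background on 0, 2 and 1 of 12 arrays, so signal over background limits what could be seen of them. The bound on the ratio of group means for CYP3A4 at 28 µM was 0.80-fold with the processed signal and 1.05-fold to 1.16-fold with 1 array left out.

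With the replicate number as a block, all probes called at 42 µM went from 885 to 1366. The count of called members stayed at 0, targets called at 42 µM went from 3 to 5, partners from 1 to 2 and other CYP2 and CYP3 enzymes from 0 to 1. Other CYP2 and CYP3 enzymes also had 1 call with slide as a random block and with only the groups compared, and 0 to 1 with 1 array left out. That call was CYP2R1. Targets had 1 call with the processed signal or with a log2 limit of 1, 0 with slide as a block and 0 to 4 with 1 array left out. Partners had 0 calls with slide as a block, 2 with only the groups compared and 0 to 2 with 1 array left out. At 28 µM, leaving out 1 array gave 0 to 2 called targets and 0 to 1 called partners, in both cases above 0 only without 28 µM replicate 4. That array had been set apart on probes that include those of the called genes. The causes were not tested.

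Within-slide differences rest on 1 array a side. Those over 1 replicate SD from the fitted value, at 28 µM, were -0.33 for CYP3A5 (slide 4), -0.54 for CYP2B6 (slide 2), 0.72 and -0.28 for CAR (NR1I3; slides 2 and 4) and -0.45 for POR (slide 2). At 42 µM they were 1.34 for CYP3A5 (slide 5), 0.57 for CYP2E1 (slide 2), 0.49 for CYP2B6 (slide 5), and -0.24 and 0.83 for POR (slides 2 and 5). Between the doses they were -0.31 and 0.64 for CYP3A5 (slides 3 and 4), 0.51 for CYP2E1 (slide 2), 0.61 and -0.15 for CYP2B6 (slides 2 and 3) and -0.71 and 0.11 for CAR (slides 2 and 3).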
